A study of Homo sapiens with 27 samples.

Results

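The SR splicing factor genes described here were SRSF1, SRSF2, SRSF3, SRSF4, SRSF5, SRSF6, SRSF7, SRSF9, SRSF10 and SRSF11, 10 of the 34464 genes with a deposited level. They were chosen by name, through their Ensembl gene IDs. No measured value entered that rule, but earlier results of these data were known when the choice was made. RNA Frac-Seq, which is RNA sequencing of cell fractions, had been carried out on U2OS cells, a human osteosarcoma line. The cells carried a control shRNA, the shRNA TPR A or the shRNA TPR D for 5 days, delivered by lentivirus, and the TPR shRNAs target the mRNA of TPR, a protein of the nuclear pore basket. Each of the 3 shRNAs had 3 replicate cultures. Poly(A)+ RNA of each culture was sequenced as nuclear, cytoplasmic/ER and total library, which made 27 libraries in 9 groups of 3. The total RNA came from a part of the cells set aside before detergent separated the nuclei from the cytoplasm and the endoplasmic reticulum (ER). The authors deposited FPKM, which are fragment numbers per length of transcript and size of library, with all transcripts of a gene summed. The question put to these genes was how their mRNA was spread between nucleus and cytoplasm, and whether that changed when TPR was depleted. A bulk depletion for 5 days cannot separate direct from later effects, and the cells were all of 1 line.

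SR proteins bind exons through RNA recognition motifs and recruit the splicing machinery through a domain rich in arginine-serine (RS) dipeptides. They are kept in nuclear speckles, the SRPK and CLK kinases phosphorylate their RS domains, and transportin 3 carries them into the nucleus. SRSF1, SRSF3 and SRSF7 shuttle between nucleus and cytoplasm and can act as adaptors for the mRNA export receptor NXF1, while SRSF2 largely stays in the nucleus. Several SR genes are known to hold down their own level by splicing in an exon with an early stop codon, a "poison exon", or by keeping an intron, so that part of their RNA is degraded by nonsense-mediated decay or stays in the nucleus.

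Transcripts marked for such decay or with a kept intron were looked up in the annotation, which does not show that a gene holds down its own level. Each of the 10 SR genes had at least 1 annotated transcript marked for nonsense-mediated decay, against 47.7% of the 12381 protein-coding genes tested, and 9 of 10 had an annotated transcript with a retained intron, against 59.9%. Exons that end the reading frame in transcripts marked for decay were looked up in the SR genes only. Their share over all genes was not counted. First and last exons, and exons that overlap a protein-coding one, were left out, so genes outside this count may still have a poison exon. In 6 of the 10, an exon that ended the reading frame lay outside every exon of the gene's protein-coding transcripts. The sequences below show, for the longest such exon of each of those genes, the last bases of the reading frame up to the stop codon (at most 30), because these are the codons that a poison exon adds. They were read 5′ to 3′ on the strand of the gene from GRCh37, and the stop codon is in capitals.
SRSF3: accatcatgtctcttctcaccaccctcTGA
SRSF4: ggagaggttcggttcttacaaggaaaaTGA
SRSF6: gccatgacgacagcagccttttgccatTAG
SRSF7: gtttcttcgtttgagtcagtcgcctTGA
SRSF9: aaaactatTAG
SRSF11: gttgttcataaaacagcttttgaaagtTGA

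The SRSF3 stretch lay at chr6:36567602-36567631 (plus strand) in an exon of 456 nt. The SRSF4 stretch lay at chr1:29492521-29492550 (minus strand) in an exon of 175 nt. The SRSF6 stretch lay at chr20:42087915-42087944 (plus strand) in an exon of 268 nt. The SRSF7 stretch was at chr2:38976461-38976488 (minus strand) in an exon of 449 nt, the SRSF9 stretch at chr12:120902615-120902625 (minus strand) in an exon of 90 nt, and the SRSF11 stretch at chr1:70697562-70697591 (plus strand) in an exon of 117 nt. The 6 stops differed in sequence and codon, with TGA in 4 and TAG in 2. FPKM per gene sum the coding and the decay transcripts, so the values below do not show how much of either was present.

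The 10 genes lie on 7 chromosomes of GRCh37. SRSF1 (chr17:56078280-56084707), SRSF2 (chr17:74730197-74733415), SRSF4 (chr1:29474255-29508412), SRSF7 (chr2:38970741-38978636), SRSF9 (chr12:120899475-120933749) and SRSF10 (chr1:24290837-24307417) are on the minus strand. SRSF3 (chr6:36562130-36573377), SRSF5 (chr14:70193617-70238722), SRSF6 (chr20:42086533-42094686) and SRSF11 (chr1:70671365-70718735) are on the plus strand. Their pre-mRNAs had a median of 7596 nt, against 22871 nt over the protein-coding genes tested, and their mRNAs a median of 1795 nt in 6 exons, against 1930.5 nt in 7 exons. SRSF4 and SRSF11 stood out with pre-mRNAs of 33685 and 38804.5 nt. The annotation named 11 pseudogenes after 6 of the genes, 5 of them after SRSF3. Reads from such copies could have been counted for the parent, since the authors' index held coding and lncRNA transcripts only. Of the 10 loci, 5 overlap another coding or lncRNA gene, 3 of them on the same strand (SRSF1, SRSF6 and SRSF9), and the strand setting of the quantification was not given in the sources used here.

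The depth behind these levels can be judged from the read numbers. A value of 1 FPKM on 1 kb of transcript stood for an estimated 32.1 to 87 reads (median 49.6), and an SR gene was covered by an estimated 1436 to 39647 reads per library (median 9028). TPR mRNA was at 25.3 to 28.2 FPKM in the control total libraries, 3.44 to 4.70 with TPR A and 3.23 to 6.01 with TPR D. The labels thus held for control against TPR shRNA. TPR A and TPR D overlapped, so this check cannot tell their labels apart. The mesenchymal and bone lineage markers VIM, SPARC, RUNX2 and COL1A1 were all present (RUNX2 at 6.25 to 25.1 FPKM), while PTPRC reached at most 1.22 FPKM, EPCAM lay at 1.43 to 6.87 FPKM and ALB was listed at 0 in 25 of 27 libraries. Mitochondrial mRNAs held 26.5% to 37.9% of all FPKM in cytoplasmic/ER libraries and 0.774% to 2.42% in 8 nuclear libraries. The nuclear library labelled control replicate 2 held 21.8% and the total library labelled control replicate 2 held 0.738%, against 15.8% to 24.7% in the other total libraries. Across genes, each of these 2 libraries was closest to the other's fraction, unlike the remaining 25, which were each nearest to their labelled one. Both were kept under their labels, and values without them are given beside the calls and changes that moved most.

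In the total libraries SRSF9 was the most abundant of the SR mRNAs and SRSF4 the least. In the 9 total libraries SRSF9, a shuttling SR protein close in domain structure to SRSF1, ranged from 235 to 404 FPKM (median 313), and it was above SRSF1 in 9 of 9 cultures. SRSF1, the founding member of the family, followed with 159.8 to 239.7 FPKM (median 204). SRSF3, the smallest SR protein, had a median of 192 FPKM, SRSF5 one of 159.8, SRSF7 one of 142 and SRSF2 one of 129. Within this middle group each gene was above the next in only 6 or 7 of 9 cultures, and SRSF1 was above SRSF3 in 7 of 9, so their order was not larger than the spread between cultures. SRSF2 was above SRSF10 in 9 of 9 cultures with no overlap of the ranges. SRSF10, which represses splicing when dephosphorylated in mitosis or heat shock, had a median of 84.2 FPKM, SRSF11 one of 55.2, SRSF6 one of 54.96 and SRSF4 one of 39.3. SRSF10 was above SRSF11 in 9 of 9 cultures and SRSF6 above SRSF4 in 9 of 9, but SRSF11 was above SRSF6 in only 7 of 9. In the fractions SRSF11 had the lower median, 43.0 against 49.1 FPKM for SRSF4 in the nuclear and 25.2 against 35.3 FPKM in the cytoplasmic/ER libraries.

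**Figure D1:**
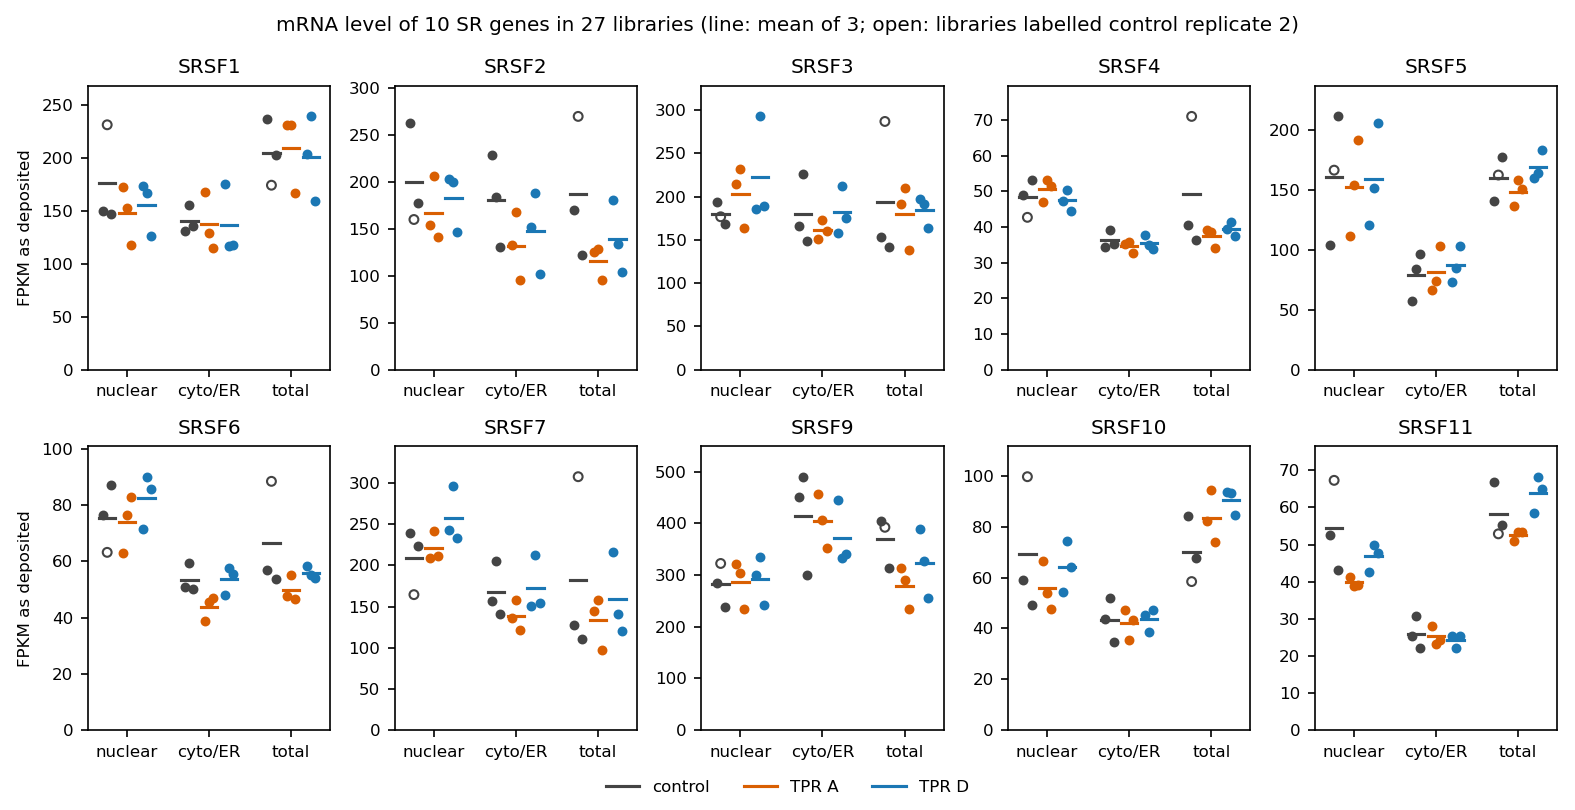
FPKM of each SR gene (y axis, linear, a scale for each gene) in the 27 libraries, by fraction (x axis) and shRNA (colour). Points are libraries, lines are means of 3, and open points are the nuclear and total libraries labelled control replicate 2. The means of SRSF9 are higher in the cytoplasmic/ER than in the nuclear libraries, those of SRSF5 and SRSF11 are lower, and the open points of SRSF2, SRSF3, SRSF4, SRSF6 and SRSF7 lie above all other total libraries.

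The mRNAs of most SR genes had a higher level in the nuclear than in the cytoplasmic/ER fraction. For each culture the log2 of the nuclear over the cytoplasmic/ER FPKM (the N/C ratio) was taken after rescaling of the libraries. It compares the shares of 2 libraries and is not the share of molecules in the nucleus. Over all 9 cultures, 6 of 10 SR genes were higher in the nuclear fraction and 1 in the cytoplasmic/ER fraction (limma adjusted p under 0.05), and the background of all 14611 genes tested was 30% nuclear and 29.2% cytoplasmic/ER. The median N/C ratio of the 10 genes was 0.51 on the log2 scale and that of all genes -0.01. With so few genes the excess over the background is a description.

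SRSF5 and SRSF11 had the highest N/C ratios. SRSF5, an SR protein related to SRSF4 and SRSF6, was at 104, 166 and 211 FPKM in the control nuclear libraries and at 57.1, 84.1 and 96.5 in the control cytoplasmic/ER libraries. With TPR A it was at 112, 154 and 192 FPKM in the nuclear and 66.8, 73.7 and 103 in the cytoplasmic/ER libraries. With TPR D the values were 120.4, 152 and 206 FPKM against 73.3, 85.1 and 103. In every culture the nuclear value was the higher one, and over all cultures SRSF5 was 1.91-fold higher in the nuclear fraction (log2 0.93, standard error 0.15, limma adjusted p = 1.80e-05).

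SRSF11, an SR-related protein with 1 RNA recognition motif, was at 52.7, 67.3 and 43.0 FPKM in the control nuclear libraries and 25.4, 30.7 and 22.01 in the control cytoplasmic/ER libraries. With TPR A it was at 41.3, 38.9 and 39.2 FPKM in the nuclear and 28.1, 23.3 and 24.3 in the cytoplasmic/ER libraries. With TPR D it was at 42.6, 49.97 and 47.8 against 25.2, 21.99 and 25.4 FPKM. The ranges of the fractions did not overlap within any shRNA. Over all cultures SRSF11 was 1.88-fold higher in the nuclear fraction (log2 0.91, standard error 0.10, limma adjusted p = 8.09e-08).

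SRSF4 and SRSF6, which like SRSF5 carry a second RNA recognition motif before the RS domain, also had a higher level in the nuclear fraction. SRSF6 was 1.56-fold higher in the nuclear fraction (log2 0.64, standard error 0.10, limma adjusted p = 1.13e-05), with N/C ratios of 0.13 to 0.83 (median 0.67) on the log2 scale in the 9 cultures. SRSF4 was 1.39-fold higher (log2 0.48, standard error 0.10, limma adjusted p = 0.000265), with N/C ratios of 0.17 to 0.65. In both genes the lowest ratio was that of control replicate 2, whose nuclear library stood apart, and without that culture the lowest were 0.58 for SRSF6 and 0.33 for SRSF4. SRSF10 had a log2 N/C ratio of 0.55 (standard error 0.13, limma adjusted p = 0.00125), with cultures between 0.14 and 0.99. Here control replicate 2 was the highest, and without its nuclear and total libraries SRSF10 was at 0.45 (limma adjusted p = 0.00143).

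Of the shuttling export adaptors, SRSF7 was higher in the nuclear fraction and SRSF1 and SRSF3 did not pass the test. SRSF7, which carries a zinc knuckle beside its RNA recognition motif, was at 239, 165 and 224 FPKM in the control nuclear and 156, 206 and 141 in the control cytoplasmic/ER libraries. With TPR A the values were 209, 242 and 211 against 136, 159 and 122 FPKM, and with TPR D 244, 297 and 233 against 151, 213 and 154 FPKM. Only control replicate 2 was higher in the cytoplasmic/ER fraction, with a log2 N/C ratio of -0.27, and the other 8 cultures lay between 0.49 and 0.80. The mean over all cultures was 0.55 (standard error 0.17, limma adjusted p = 0.00716) and 0.60 without the nuclear and total libraries labelled control replicate 2 (limma adjusted p = 0.000566). SRSF1 had a log2 N/C ratio of 0.22 (95% interval -0.06 to 0.51, limma adjusted p = 0.172), SRSF3 one of 0.22 (-0.06 to 0.51, limma adjusted p = 0.165) and SRSF2 one of 0.31 (-0.05 to 0.66, limma adjusted p = 0.132).

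SRSF9 went the other way. It was at 285, 322 and 238 FPKM in the control nuclear libraries and 450.1, 489.9 and 300.4 in the control cytoplasmic/ER libraries. With TPR A the values were 322, 304 and 234 against 456, 407 and 352 FPKM. With TPR D they were 299, 334 and 242 against 444, 332 and 340.0 FPKM, and TPR D replicate 2 was the only culture of 9 in which the nuclear value was not the lower one. The nuclear level of SRSF9 was 0.736 times the cytoplasmic/ER level (log2 -0.44, standard error 0.13, limma adjusted p = 0.00444), and -0.48 without the nuclear and total libraries labelled control replicate 2 (limma adjusted p = 0.00320).

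The nuclear and cytoplasmic/ER libraries of a culture came from the same cells, and with the culture as a block 10 of 10 SR genes were called over all cultures, since SRSF1 (limma adjusted p = 0.0379), SRSF2 (0.0111) and SRSF3 (0.0451) then passed as higher in the nuclear fraction. The block raised the calls over all genes as well, to 34.9% nuclear and 35.5% cytoplasmic/ER. Replicate 1 is labelled in a form of its own, different from that of replicates 2 and 3. Within replicate 1 the mean log2 N/C ratio of SRSF5 was 0.79, of SRSF11 0.80 and of SRSF9 -0.56, and within replicates 2 and 3 it was 1.01, 0.96 and -0.38. With replicates 2 and 3 alone, SRSF7 (limma adjusted p = 0.0907) and SRSF9 (0.0753) were no longer called.

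Taken by shRNA, fewer genes passed, in the same direction. In control cells 5 of 10 SR genes were higher in the nuclear fraction (SRSF4, SRSF5, SRSF6, SRSF10 and SRSF11) and none in the cytoplasmic/ER fraction, against 20.2% and 19.2% of all genes. With TPR A there were 4 nuclear (SRSF4, SRSF5, SRSF6 and SRSF11) and none cytoplasmic/ER, against 15.2% and 13.2%. With TPR D there were 3 nuclear (SRSF5, SRSF6 and SRSF11) and none cytoplasmic/ER, against 17.1% and 14.6%. With the culture as a block the counts were 6, 6 and 6. The shares of all genes were then 26.8% nuclear and 27.7% cytoplasmic/ER in control cells, 22.9% and 22.5% with TPR A, and 24.2% and 23.6% with TPR D. Both directions summed, 6 of 10 was near that background. By direction, every blocked call was nuclear except that of SRSF9 in control cells and with TPR A. SRSF9 was added in control cells (log2 -0.50, limma adjusted p = 0.0140), SRSF7 and SRSF9 with TPR A, and SRSF4, SRSF7 and SRSF10 with TPR D. Single cultures decided some of these calls. The control call of SRSF10 rested on control replicate 2, since its log2 N/C ratio went from 0.66 to 0.36 (limma adjusted p = 0.175) without the nuclear and total libraries of that label. The control call of SRSF4 (limma adjusted p = 0.0428) was the least stable and held in 8 of 19 alternatives. That of SRSF10 held in 15, that of SRSF6 in 16, and those of SRSF5 and SRSF11 in 19. Without control replicate 1 only 2 genes were called in control cells and without control replicate 3 only 3, without TPR A replicate 2 or 3 only 1 with TPR A, and without TPR D replicate 2 or 3 only 1 with TPR D, whereas without control replicate 2 there were 6 with TPR D.

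**Figure D2:**
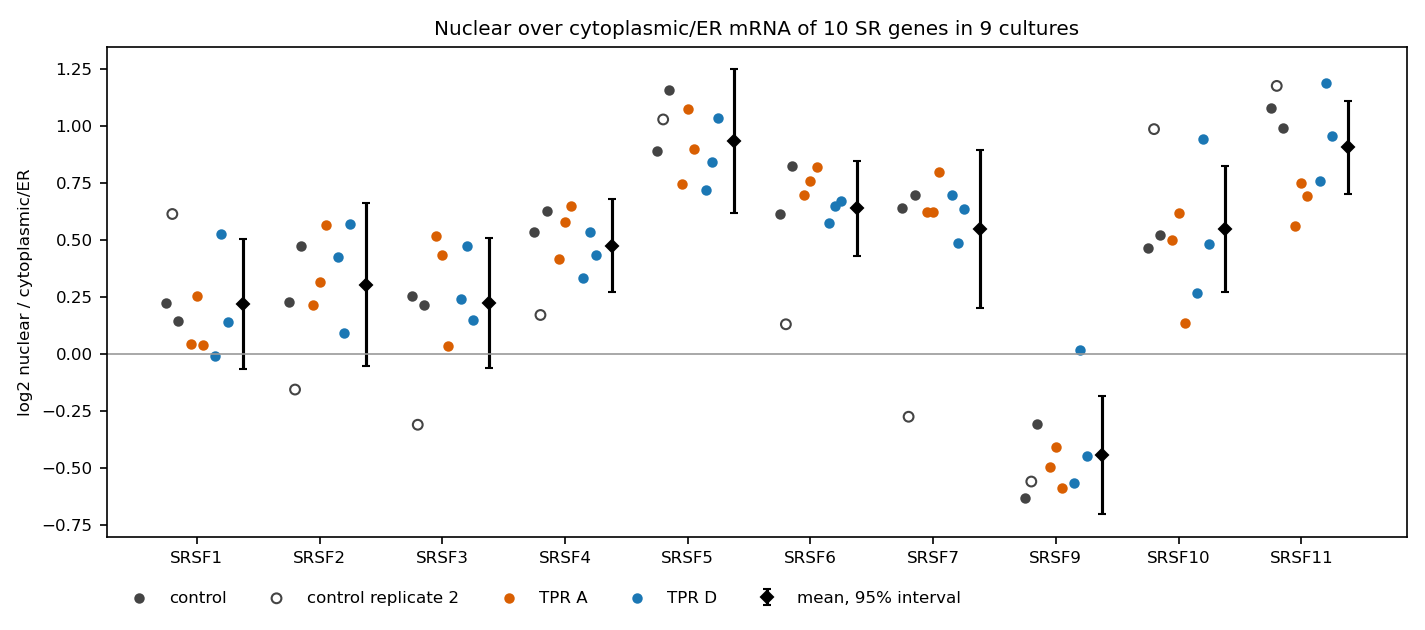
Log2 of the nuclear over the cytoplasmic/ER level (y axis) of each SR gene (x axis) in the 9 cultures, coloured by shRNA, with control replicate 2 as an open point and the mean over all cultures with its 95% interval in black. SRSF5 and SRSF11 lie highest, at means of 0.93 and 0.91, SRSF9 lies below 0 in 8 of 9 cultures, and the open point is the lowest for SRSF2, SRSF3, SRSF4, SRSF6 and SRSF7.

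The total libraries split the genes in another way. A mixture of both fractions would have a value between the nuclear and the cytoplasmic/ER value. SRSF1, SRSF10 and SRSF11 were instead higher in the total library than in both fractions in 8 of 9 cultures, and SRSF5 in 5 of 9. How many of all genes had a total above or below both fractions was not counted, so this is a description only. For SRSF1, SRSF10 and SRSF11 the exception was control replicate 2, whose nuclear and total libraries stood apart. The test set the rescaled log2 total level against the mean of both log2 fractions, and the folds below come from that difference. For a gene higher in the nuclear fraction, a total near the nuclear level also exceeds this mean. A pass therefore does not show a total above both fractions. For SRSF5 the mean total was 159.1 FPKM and the mean nuclear level 157.4 FPKM. On the log2 scale, the total level minus the mean of both fractions passed the test as higher for 4 of 10 SR genes, against 24.4% of all genes, and as lower for none, against 25%. With the culture as a block the same 4 genes passed, against 23.2% of all genes as higher and 24.2% as lower. Without the nuclear and total libraries labelled control replicate 2, SRSF1 was at 0.62, SRSF5 at 0.59, SRSF10 at 0.82 and SRSF11 at 0.89, and all 4 still passed.

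The total level of SRSF11 was 66.9, 52.9 and 55.2 FPKM in control cells, 50.8, 53.4 and 53.3 with TPR A and 58.5, 68.3 and 65.0 with TPR D, 1.78-fold above the mean of its fractions (log2 0.83, standard error 0.09, limma adjusted p = 7.80e-07). SRSF10 was at 84.2, 58.5 and 67.8 FPKM in the control total libraries, 82.5, 94.6 and 74.1 with TPR A and 93.7, 93.5 and 84.9 with TPR D. Its nuclear libraries lay at 47.8 to 99.8 FPKM (median 59.2) and its cytoplasmic/ER libraries at 34.8 to 51.9 (median 43.8). By the rescaled log2 values, its total was 1.64-fold above the mean of both fractions (log2 0.72, standard error 0.12, limma adjusted p = 8.29e-05). Outside the 2 libraries that stood apart, no fraction library of SRSF10 or SRSF11 came up to the total library of the same culture.

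SRSF1 was at 237, 175 and 203 FPKM in the control total libraries, 232, 232 and 167 with TPR A and 204, 239.7 and 159.8 with TPR D, 1.45-fold above the mean of its fractions (log2 0.54, standard error 0.12, limma adjusted p = 0.00111). SRSF5 was 1.49-fold above (log2 0.58, standard error 0.13, limma adjusted p = 0.00139), with 0.84 in replicate 1 and 0.45 in replicates 2 and 3. SRSF7 was the lowest, at -0.28 (95% interval -0.58 to 0.02, limma adjusted p = 0.113), and its total FPKM as deposited lay below both fractions in 6 of 9 cultures. After rescaling, the total of TPR A replicate 2 was above the cytoplasmic/ER value (log2 7.35 against 7.26). Without the nuclear and total libraries labelled control replicate 2 SRSF7 was at -0.45 and passed as lower in the total libraries (limma adjusted p = 0.00318), which brought the count to 5 of 10. SRSF2, SRSF3, SRSF4, SRSF6 and SRSF9 were between -0.15 and 0.05. The nuclear lncRNAs MALAT1 and NEAT1 moved with this pattern. Without control replicate 2, MALAT1 was at 71.6 to 207 FPKM in the total and 16.3 to 40.1 FPKM in the nuclear libraries. NEAT1 was at 56.8 to 150.3 FPKM in the total and 21.7 to 67.1 FPKM in the nuclear libraries. What these nuclear RNAs share with the SR genes was not tested.

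**Figure D3:**
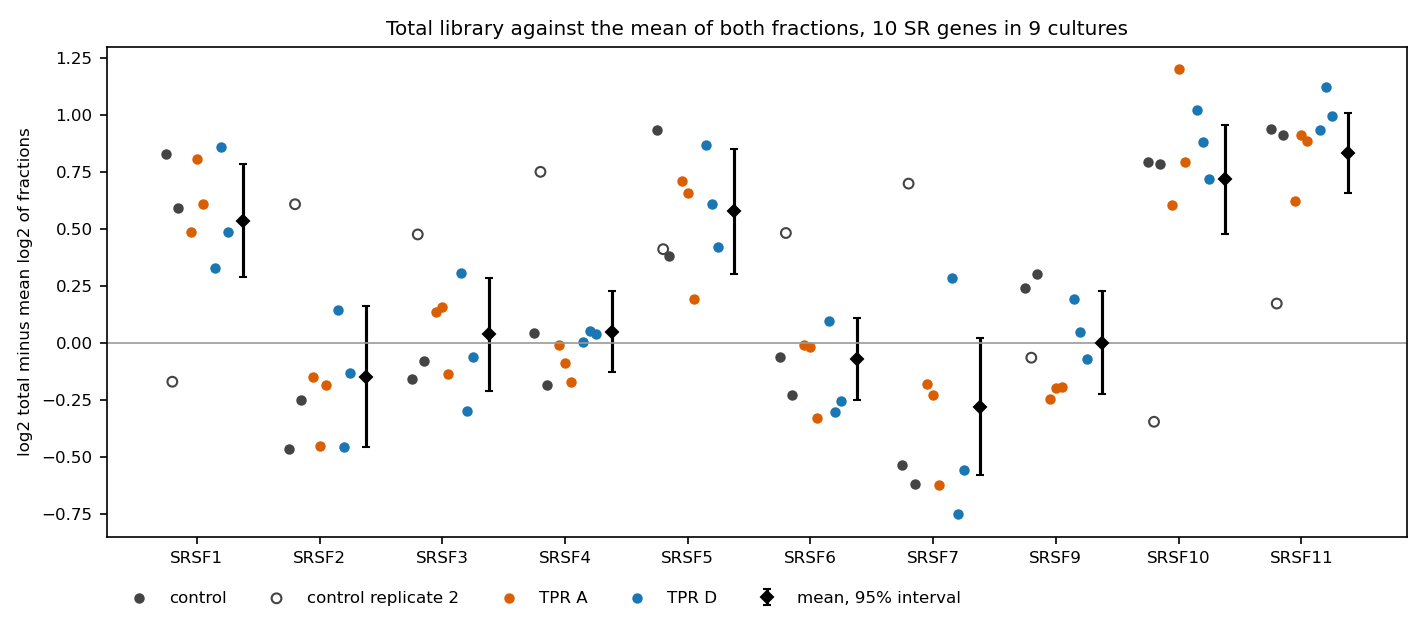
Log2 of the total level minus the mean log2 level of both fractions (y axis) for each SR gene (x axis) in the 9 cultures, coloured by shRNA, with control replicate 2 as an open point and the mean with its 95% interval in black. SRSF1, SRSF5, SRSF10 and SRSF11 have means of 0.54 to 0.83, and the open point is the highest for SRSF2, SRSF3, SRSF4, SRSF6 and SRSF7 and the lowest for SRSF1, SRSF10 and SRSF11.

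The other genes of the SR system that could be tested were 28 of 31 listed. They were TRA2A and TRA2B, 7 genes of SR kinases and the SR importin, and 19 genes of RS domain proteins outside the family. SRSF8 was not listed in the table, and SRSF12 and SRPK3 had means of 0.333 and 0.0427 FPKM and were not tested. Over all cultures 21 of the 28 were higher in the nuclear fraction and none in the cytoplasmic/ER fraction, against 30% and 29.2% of all genes, with a median log2 N/C ratio of 0.95. Among RS domain proteins outside the family, 16 of 19 passed, led by the transcription and splicing regulators BCLAF1 (log2 1.90, standard error 0.16, limma adjusted p = 1.77e-09) and THRAP3 (1.88, standard error 0.18, limma adjusted p = 1.15e-08), the exon junction-associated protein PNN (1.78) and the speckle scaffold SON (1.47). U2AF2, the polypyrimidine tract binding subunit of U2AF, was the lowest at -0.14 (limma adjusted p = 0.527). Of the splicing regulators TRA2A and TRA2B, TRA2A was at 0.62 (limma adjusted p = 0.000135) and TRA2B at 0.14 (limma adjusted p = 0.433). Of the kinases and the importin, 4 of 7 passed, and the kinases CLK1 (1.499) and CLK4 (1.23) were above SRPK2 (0.45) and the importin TNPO3 (0.52).

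The related genes were mixed in their total levels. Of the 28, 15 were higher in the total than in the mean of both fractions, 2 were lower and 11 did not pass, against 24.4% of all genes higher and 25% lower. LUC7L3, a protein of the U1 snRNP, was at 1.56 on the log2 scale (limma adjusted p = 1.14e-06), the splicing regulator SREK1 at 1.30, CLK4 at 1.26, PNN at 1.01 and CLK1 at 0.92. CLK3 and U2AF2 were both at -0.46 (limma adjusted p = 0.0243 and 0.0230), and each was called in 14 of 19 alternatives (highest limma adjusted p = 0.116 and 0.137). The highest SR gene, SRSF11 with 0.83, lay below these 5 genes.

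**Figure D4:**
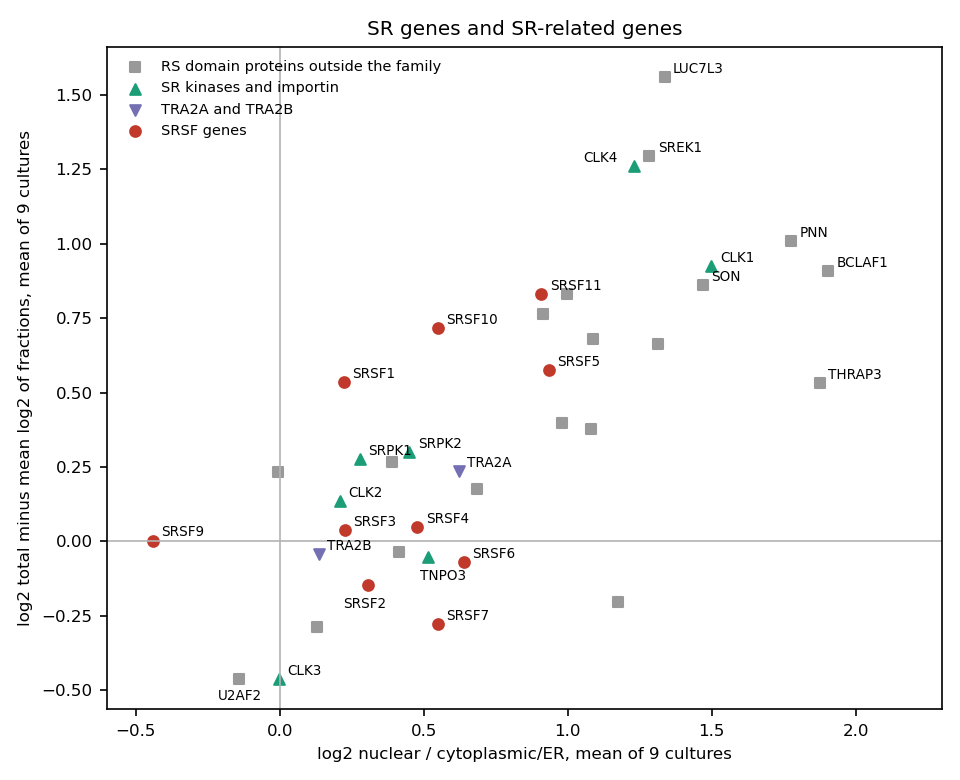
Log2 nuclear over cytoplasmic/ER level (x axis) and log2 total level minus the mean of both fractions (y axis), each a mean over 9 cultures, for the SR genes (circles), TRA2A and TRA2B, SR kinases and the importin TNPO3, and RS domain proteins outside the family (squares). SRSF11 and SRSF5 lie nearest to the squares at the upper right, and SRSF9 is the leftmost point.

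Across the 27 libraries the SR genes varied together only in part. Pearson's r between the log2 profiles of 2 SR genes was -0.65 to 0.92 over the 45 pairs (median 0.25), and 34 pairs were above 0. The share of pairs above 0 over all genes was not counted. With the mean profile of the 10 genes, r was 0.84 for SRSF11, 0.79 for SRSF4 and -0.18 for SRSF9. Each SR gene is part of that mean, which raises its r, so these values are not comparable with those of other genes. The 5 other genes with the most similar profile to that mean were HSPH1 (r = 0.92), SRRM1 (0.92), PNN (0.91), KBTBD6 (0.90) and RBM25 (0.90). These libraries share fractions and cultures, so r describes their likeness only.

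The cultures differed by replicate number as well. SRSF5 was lowest in replicate 1 in 9 of 9 groups and highest in replicate 3 in 8 of 9. SRSF2 and SRSF9 were lowest in replicate 3 in 8 of 9 groups each. The fractions of a culture came from the same dishes, so these groups are not separate observations. How many of all genes kept such an order was not counted. Between the lowest and the highest replicate of a group SRSF2 differed by a median of 1.73-fold and SRSF5 by 1.54-fold, but SRSF4 by 1.13-fold and SRSF11 by 1.17-fold.

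When TPR was depleted, none of the 10 SR genes changed past the threshold in any fraction. In the total libraries the count was 0 of 10 with TPR A and 0 of 10 with TPR D, against 0.821% and 0.753% of all genes. In the nuclear libraries it was 0 of 10 with each shRNA, against 0.903% and 0.479%, and in the cytoplasmic/ER libraries 0 of 10 with each, against 0.623% and 0.575%. With backgrounds this low, counts of 0 do not set the SR genes apart. Among the total libraries the SR genes had a median log2 change of -0.17 under TPR A and 0.02 under TPR D. The medians were -0.03 and 0.00 in the nuclear libraries and -0.03 and 0.01 in the cytoplasmic/ER libraries. Without adjustment, limma gave p under 0.05 for 1 SR gene in 1 of these 6 comparisons, which was SRSF11 in the nuclear libraries with TPR A.

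SRSF11 in the nucleus had a log2 change of -0.42 with TPR A (95% interval -0.77 to -0.07, limma adjusted p = 0.293) and -0.19 with TPR D (-0.54 to 0.17, limma adjusted p = 0.839). All 3 TPR A libraries lay below all 3 control libraries, whose highest value, 67.3 FPKM, was that of the nuclear library labelled control replicate 2. Without the nuclear and total libraries of that label the change was -0.25 (95% interval -0.58 to 0.09, limma adjusted p = 0.719). In the total libraries SRSF2 had the lowest change with TPR A, -0.56 (95% interval -1.18 to 0.06, limma adjusted p = 0.452). Its values were 169.9, 269.8 and 122 FPKM in control cells and 125, 129 and 95.4 with TPR A, and they overlapped, although replicate by replicate SRSF2 was lower with TPR A in 3 of 3. Blocked by replicate number, this change had an unadjusted limma p of 0.0113 (adjusted p = 0.147). Without the nuclear and total libraries labelled control replicate 2 it was at -0.29. SRSF10 had the highest changes in the total libraries, 0.32 with TPR A (95% interval -0.16 to 0.80, limma adjusted p = 0.585) and 0.46 with TPR D (-0.02 to 0.94, limma adjusted p = 0.361). All 3 TPR D values were above all 3 control values, and the lowest control value, 58.5 FPKM, belonged to the total library labelled control replicate 2. With that library and its nuclear partner left out, the changes of SRSF10 were 0.17 and 0.30. These 2 shRNAs were compared with the same control libraries. How many of all genes had 3 values wholly above or below 3 control values was not counted, so such separation is a description only.

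The N/C ratio of the SR genes did not change past the threshold either. The change was called for 0 of 10 SR genes with TPR A, with TPR D and with both, where limma called 0% of all genes in each of the 3 comparisons. Of all genes 215 with TPR A, 120 with TPR D and 251 with both had an unadjusted p under 0.05, and 0 of the 10 SR genes did. With the culture as a block, 1314 genes did with TPR A, and SRSF11 was among them. Its log2 N/C ratios were 1.08, 1.18 and 0.995 in control cells and 0.56, 0.75 and 0.70 with TPR A, without overlap, and the change was -0.41 (95% interval -0.81 to -0.02, limma unadjusted p = 0.0403, adjusted p = 0.544). The share of all genes without such overlap was not counted. For both shRNAs together the changes of the 10 genes ran from -0.27 for SRSF11 to 0.29 for SRSF7 on the log2 scale, with a median of 0.07. Their 95% intervals had a median half-width of 0.60, and of 0.40 with the culture as a block. For SRSF1, SRSF4 and SRSF10 the sign of the change turned when the nuclear and total libraries labelled control replicate 2 were left out, to 0.06, -0.03 and 0.14. TPR A and TPR D total libraries also gave 0 of 10 SR genes called against each other, against 0.281% of all genes.

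**Figure D5:**
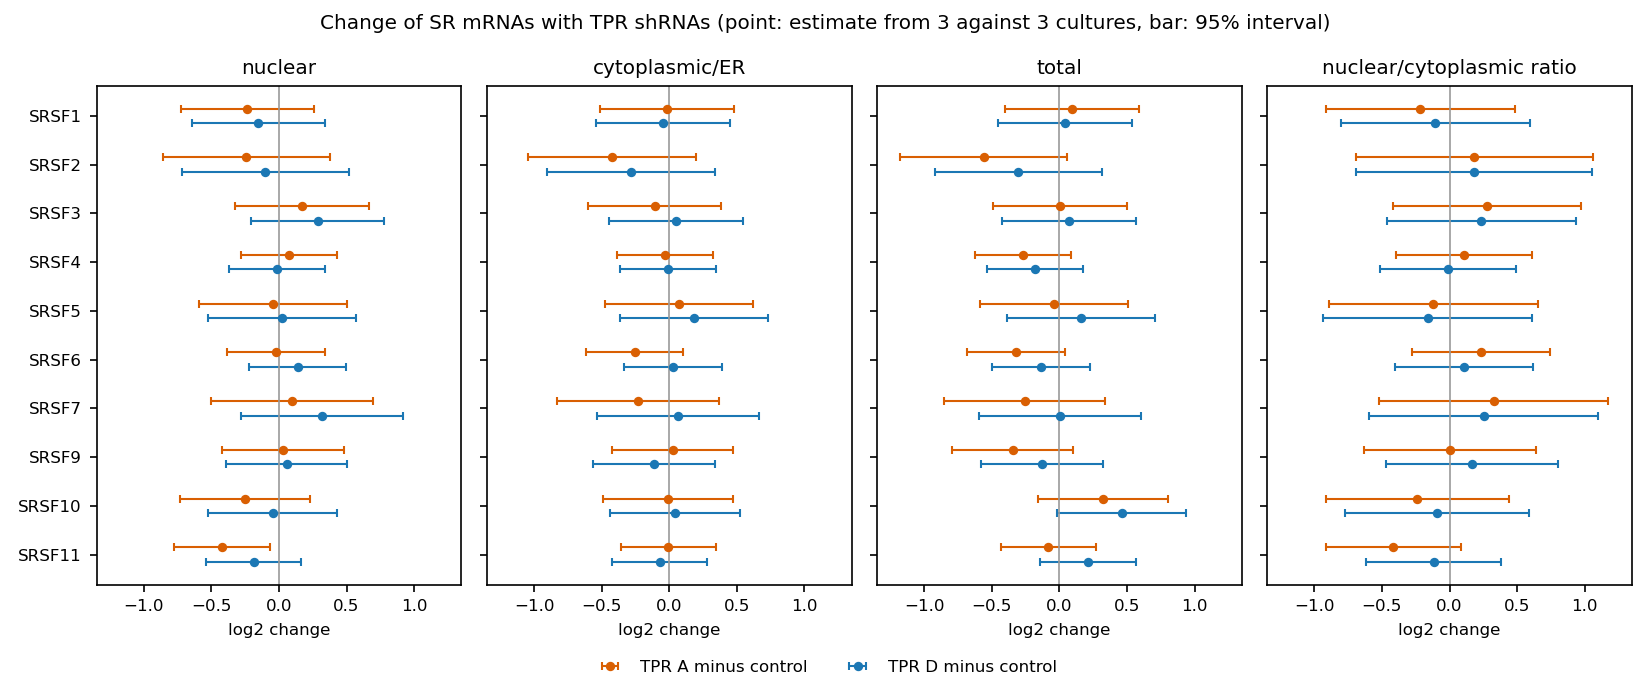
Log2 change (x axis) of each SR gene (y axis) between cells with a TPR shRNA, by colour, and control cells, in the nuclear, cytoplasmic/ER and total libraries and in the nuclear over cytoplasmic/ER ratio. Points are estimates from 3 against 3 cultures, bars are 95% intervals. All intervals contain 0 except that of SRSF11 in the nuclear libraries with TPR A, which runs from -0.77 to -0.07.

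None of the 28 related genes passed the test in these depletion comparisons when fitted without a block. In the total libraries the lowest changes were those of TNPO3 with TPR A (log2 -0.81, standard error 0.23, limma adjusted p = 0.0946) and SRPK2 with TPR D (-0.68, standard error 0.19, limma adjusted p = 0.0991). CLK4 had the highest, 0.66 with TPR A (limma adjusted p = 0.3795) and 0.83 with TPR D (limma adjusted p = 0.212). Blocked by replicate number, TNPO3 passed with TPR A in the total libraries (limma adjusted p = 0.0410), and SRPK2 with TPR D in the total (0.0294) and the cytoplasmic/ER libraries (0.0335). The blocked fit called 2.59%, 3.16% and 1.79% of all genes in these comparisons, in the same order. In the total libraries TNPO3 with TPR A and SRPK2 with TPR D were each called in only 1 of 19 alternatives. In the fit without a block TPR mRNA fell in the total libraries, by log2 -2.59 under TPR A (limma adjusted p = 0.00120) and -2.44 under TPR D (limma adjusted p = 0.00160).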

How the data were processed

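FPKM for 34464 genes were deposited by the authors, who ran Salmon on directional poly(A)+ reads against coding and lncRNA transcripts (hg19, an older Gencode release) and used tximport to sum transcripts to genes. Their replicates were not pooled. Gene IDs were matched to a later GENCODE release placed on GRCh37 (32776 of 34464 matched), which gave symbols, positions and transcript classes. The SR genes and the lists of related genes were chosen with earlier results of these data known. Listed genes outside the SR genes were named where they were called or had the highest or lowest change, and genes of similar profile by Pearson's r over 27 libraries.

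Tests covered the 14611 genes whose mean exceeded 1 FPKM, without the 13 mitochondrial genes. Levels were rescaled by median-of-ratios factors and tested as log2(FPKM + 0.1), a scale that understates folds of low genes. One limma model (version 3.58.1, R 4.3.3, eBayes trend) was fitted to the 9 groups (27 libraries). Adjustment followed Benjamini and Hochberg, over all genes tested, with a threshold of 0.05. The comparisons over all cultures and of total with both fractions were added after the data were seen. Read numbers were estimated from steps of 1 read in low values, with 250 nt subtracted from each transcript, where 87.8% of 28487 values lay within 0.1 of a whole read. On simulated data for 14611 genes limma recovered 38 of 100 genes changed by log2 1 and 80 of 100 changed by log2 2 for the control N/C comparison, with 8 false calls. For TPR A in total libraries it recovered 29 and 80 of 100, with 7 false calls.

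Libraries of a culture, matched by replicate number, came from the same dishes, and its nuclear and cytoplasmic/ER deviations from the group means correlated at 0.223 to 0.469. Between total libraries and the fractions this correlation ran from -0.432 to 0.450. Replicate numbers also paired control with TPR A total libraries (0.137 to 0.324), but not each of the other comparisons with control. The labels only number the replicates. The paper calls them biological replicates, and they were taken as separate cultures. The alternatives were FPKM left unscaled, another pseudocount (1 or 0.01), no minimum, a minimum of 5 FPKM, each culture left out, 2 libraries dropped, replicates 2 and 3 alone, replicate or culture blocks, no trend, and 1 TPR shRNA at a time. Analyses used Python 3.11.15, numpy 2.4.6, pandas 2.3.3 and matplotlib 3.10.9.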

Additional observations from a re-analysis of the deposited data

Results flagged for a closer look

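In the total libraries all 3 TPR A values of SRSF11 were below the control mean and all 3 TPR D values above it. Neither change passed the test, with log2 -0.08 for TPR A (95% interval -0.44 to 0.27), whose sign turned without control replicate 1 (0.028), and 0.21 for TPR D (-0.14 to 0.57). TPR A and TPR D differed by -0.30 on the log2 scale (95% interval -0.65 to 0.06, limma adjusted p = 0.814), which did not pass either. Under the alternatives this difference was between -0.35 and -0.25.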

How the results depend on the processing

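Of 1540 recomputed log2 values of the SR genes, 1413 kept their direction and side of the threshold, 34 lost and 28 gained a call, and 65 changed sign, none of them a called value. The 0 calls under depletion held in every alternative. Counts of N/C calls by shRNA were the least stable. With replicates 2 and 3 alone they were 2 in control cells and 2 with TPR A, with 1 culture left out 2 to 4 in control cells, 1 to 5 with TPR A and 1 to 6 with TPR D, and with TPR D 6 without the nuclear and total libraries labelled control replicate 2 and 6 with the culture as a block. With the replicate block the counts were 6, 6 and 4, where 45.7%, 35.2% and 38.4% of all genes were called in either direction, 8 over all cultures (63.8%) and 4 for total against both fractions (55.7%). Signs changed as follows, on the log2 scale. With replicates 2 and 3 alone, the control N/C ratio of SRSF3 was -0.046, the TPR A total change of SRSF3 -0.17 and of SRSF11 0.052, the TPR D total change of SRSF3 -0.11 and of SRSF7 -0.41, and total against fractions of SRSF9 -0.029. Without the 2 control replicate 2 libraries, the TPR A total change of SRSF1 was -0.049 and of SRSF7 0.17, the TPR D total change of SRSF1 -0.10, SRSF4 0.082 and SRSF6 0.059, the N/C change of SRSF1 0.060, SRSF4 -0.030 and SRSF10 0.14, and total against fractions of SRSF3 -0.058 and SRSF4 -0.052. With FPKM as deposited, and with no minimum, the TPR A total change of SRSF3 was -0.056 in both, the TPR D total change of SRSF1 -0.034 in both, SRSF3 -0.0058 and -0.0054 and SRSF7 -0.074 in both, and total against fractions of SRSF3 -0.028 in both, SRSF4 -0.018 and -0.017 and SRSF9 -0.064 in both. With a minimum of 5 FPKM, the TPR A total change of SRSF5 was 0.023 and total against fractions of SRSF6 0.013. With 1 culture left out, the ranges that crossed 0 were -0.046 to 0.24 for the control N/C ratio of SRSF3. For the TPR A total change they were -0.049 to 0.25 (SRSF1), -0.16 to 0.29 (SRSF3), -0.12 to 0.061 (SRSF5), -0.51 to 0.17 (SRSF7) and -0.18 to 0.028 (SRSF11). For the TPR D total change they were -0.10 to 0.19 (SRSF1), -0.090 to 0.36 (SRSF3), -0.34 to 0.082 (SRSF4), -0.24 to 0.059 (SRSF6), -0.25 to 0.43 (SRSF7) and -0.27 to 0.027 (SRSF9). For the N/C change they were -0.088 to 0.14 (SRSF4), -0.025 to 0.32 (SRSF6), -0.024 to 0.46 (SRSF7) and -0.0026 to 0.18 (SRSF9). For total against fractions they were -0.028 to 0.085 (SRSF3), -0.042 to 0.11 (SRSF4) and -0.022 to 0.039 (SRSF9). The cause of these changes was not tested. Over all genes the calls ranged widely, from 1 to 378 for TPR A total (120 as reported) and 0 to 461 for TPR D total (110), and from 3225 to 7969 for the control N/C ratio. The 95% half-widths of level changes were 0.35 to 0.62 over the SR genes, and intervals cover the spread between these cultures only.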
